A study of Mus musculus with 16 samples.

Results

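The 8 genes described here are members of the Hedgehog signaling pathway: the receptor Ptch1, the co-receptor Gas1, the decoy receptor Hhip, the transducer Smo, the Gli-binding protein Sufu and the transcription factors Gli1, Gli2 and Gli3. They were chosen by name and matched by symbol to the Ensembl identifiers of the count table, which held all 8 among 32989 identifiers. Tags were counted in integrin α6+/CD34− progenitors and α6+/CD34+ hair follicle stem cells (HFSCs) that had been sorted from C57BL/6J mouse HFSC organoids after 2 weeks of 3D–3C culture. Organoids of each of 4 mice were left untreated or were given the acetylated polyamine N1-acetylspermidine (N1-AcSpd) over 72 h, so that 4 groups (untreated progenitors, N1-AcSpd progenitors, untreated HFSCs and N1-AcSpd HFSCs) held 4 libraries each. All animals were of 1 inbred background with no engineered allele in the labels, and the cells were sorted from culture by the 2 surface markers. The count table covered the design in 16 libraries of 15480075 to 29074855 unique molecular identifiers (UMIs). As each library was made from sorted cells in bulk, fewer expressing cells and less RNA per cell cannot be told apart.

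Hedgehog ligands (Shh, Ihh and Dhh) bind Ptch1, which in their absence holds Smo inactive. Gas1, Boc and Cdon help the ligand to bind, Hhip sequesters it, and active Smo acts at the primary cilium to free the Gli factors from Sufu. Gli2 is mainly an activator and Gli3 mainly a repressor, while Gli1, Ptch1 and Hhip are themselves induced by the pathway and serve as its usual readouts. In skin, Shh is known for driving the growth of the hair follicle at the start of a new hair cycle.

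Levels are given as CPM, the UMI count scaled to a common library total after TMM normalization, fold changes are on the log2 scale with their standard error (SE), and p-values are from the quasi-likelihood test of edgeR, adjusted by Benjamini-Hochberg over all genes tested. A gene was called at an adjusted p under 0.05. Of the 8 genes, 6 had a mean of at least 5 UMIs per library and were among the 19049 genes tested. Gli1, with 64 UMIs in all 16 libraries, and Hhip, with 1 UMI, were not.

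The main pattern was a split within the pathway. Gas1, Gli2 and Gli3 were higher in HFSCs than in progenitors with and without N1-AcSpd, whereas the receptor and target Ptch1 was not called in any comparison and the targets Gli1 and Hhip were too low to be tested. Sufu was called in untreated cells (0.44, against 0.38 with N1-AcSpd) and Smo in N1-AcSpd cells (0.26, against 0.11 untreated). The difference between the conditions was called for neither gene. Between the cell types, 32.1% of all tested genes were called without and 33.3% with N1-AcSpd. Targets outside the members differed in both directions. Of 6 tested, 3 were higher and 2 lower in HFSCs without N1-AcSpd, and 4 higher and 2 lower with it. The weakest of these calls lay at the threshold under each condition (adjusted p = 0.04975 without and 0.04916 with N1-AcSpd, edgeR). No member was called for N1-AcSpd in either cell type, beside 0.614% of all tested genes in progenitors and 0.325% in HFSCs. Smo in progenitors was short of the threshold (-0.24, adjusted p = 0.0760, edgeR) and was past it with DESeq2 (-0.25, adjusted p = 0.0360).

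The promoters of the 3 members called between the cell types under both conditions are shown because these genes were higher in the same cells. Each window runs from 250 bases before to 50 bases after the RefSeq transcription start (GRCm38.p6), 5′ to 3′ on the strand of the gene, with CG dinucleotides in capitals. They lie at chr13:60177486-60177785 (minus strand, Gas1), chr1:119053570-119053869 (minus strand, Gli2) and chr13:15463473-15463772 (plus strand, Gli3).
Gas1: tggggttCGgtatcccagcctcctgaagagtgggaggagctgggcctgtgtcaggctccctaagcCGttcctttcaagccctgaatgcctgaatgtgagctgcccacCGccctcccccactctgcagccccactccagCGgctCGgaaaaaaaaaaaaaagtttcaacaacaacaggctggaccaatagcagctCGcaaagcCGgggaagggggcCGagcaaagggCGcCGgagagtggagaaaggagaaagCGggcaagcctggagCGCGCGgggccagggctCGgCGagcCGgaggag
Gli2: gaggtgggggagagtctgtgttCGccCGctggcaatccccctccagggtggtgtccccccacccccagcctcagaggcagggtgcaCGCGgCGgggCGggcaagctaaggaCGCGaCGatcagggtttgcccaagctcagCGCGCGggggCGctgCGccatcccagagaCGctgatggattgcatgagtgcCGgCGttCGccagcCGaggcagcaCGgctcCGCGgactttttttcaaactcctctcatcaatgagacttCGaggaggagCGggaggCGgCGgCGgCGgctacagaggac
Gli3: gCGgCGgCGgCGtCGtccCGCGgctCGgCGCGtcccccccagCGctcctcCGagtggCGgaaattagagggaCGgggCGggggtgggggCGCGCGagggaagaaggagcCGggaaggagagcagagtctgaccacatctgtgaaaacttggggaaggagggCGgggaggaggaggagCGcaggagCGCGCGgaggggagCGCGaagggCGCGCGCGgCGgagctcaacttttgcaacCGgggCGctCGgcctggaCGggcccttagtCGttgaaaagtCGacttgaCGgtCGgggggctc
The 3 windows held 17, 28 and 39 CG dinucleotides, against a median of 7 over the 32851 mouse promoter windows of the same length, and their G+C content was 62.3%, 67.3% and 71.0%, against a median of 52.7%. The other members with a window were also above that median: Ptch1 had 47 CG dinucleotides, Hhip 30, Smo 17 and Sufu 12. The Gli binding motif GACCACCCA, searched on both strands, was found in 0 of the 7 member windows and in 83 of all 32851 (0.253%), which says only that these letters are not in these windows.

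**Figure D1:**
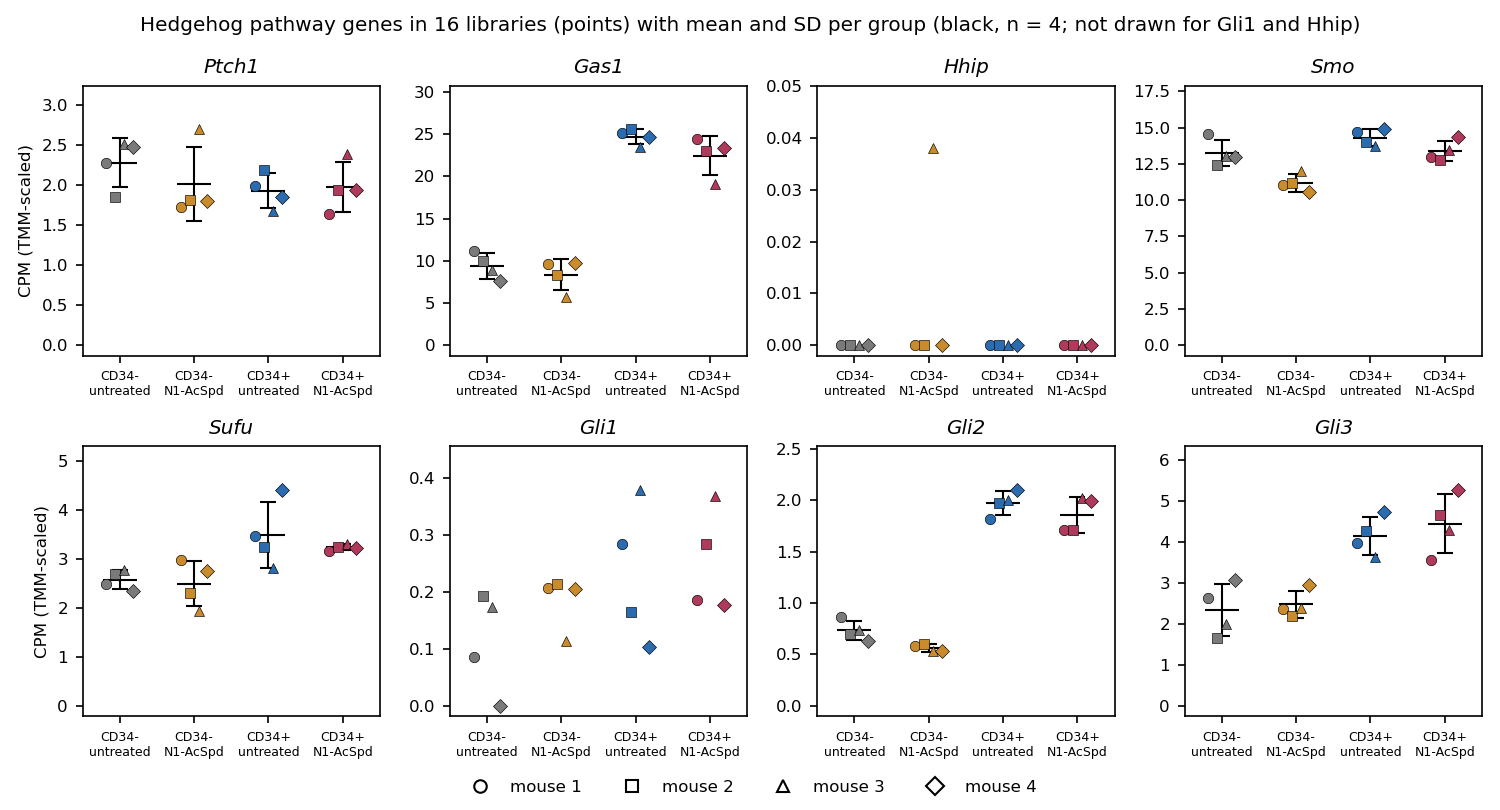
Level of each of the 8 genes in CPM (vertical axis, 1 scale per gene) in the 4 groups (horizontal axis). Points are libraries, with 1 symbol per mouse. Black bars are the mean and SD of 4 libraries and are not drawn for Gli1 and Hhip, which had at most 7 UMIs in a library. Gas1, Gli2 and Gli3 separate the HFSC libraries from the progenitor libraries, and Ptch1 does not.

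Marker genes followed the labels of the sorted fractions. Cd34, the gene of the sorting antigen, was higher in HFSCs by 3.97 (log2, SE 0.12, adjusted p = 1.59e-10, edgeR) without N1-AcSpd. Of 7 genes listed as HFSC markers, 5 were higher in HFSCs and 1 was lower under both conditions. Lgr5 was not called (0.12, SE 0.84, without and 0.89, SE 0.86, with N1-AcSpd). The lower gene, Itga6, encodes integrin α6, for which both fractions were sorted, so it does not set HFSCs apart. The summed level of the 7 genes was 142 to 157 CPM in untreated progenitors and 501 to 667 CPM in untreated HFSCs (120 to 129 and 413 to 602 CPM with N1-AcSpd). Krt15 had the most UMIs of the 7 (58188 in all 16 libraries) and was higher in HFSCs by 3.35 without N1-AcSpd, so it weighs most in this sum. The 5 differentiated keratinocyte markers were lower in HFSCs under both conditions, with a summed level of 71.7 to 87.0 CPM in untreated progenitors and 34.8 to 38.1 CPM in untreated HFSCs (78.7 to 121 and 39.5 to 46.4 CPM with N1-AcSpd). The 7 markers of fibroblasts and dermal papilla, cells that respond to Hedgehog ligands in skin, summed to 0.774 to 2.38 CPM in untreated progenitors and to 0.398 to 0.877 CPM in untreated HFSCs (0.742 to 2.17 and 0.245 to 0.853 CPM with N1-AcSpd), and Col1a2 among them was lower in HFSCs under both conditions. Other skin cells were low (immune markers at most 2.08 CPM, Merkel cell markers at most 0.247 CPM) or without a clear reading: the melanocyte sum of 9.38 to 12.6 CPM was mostly Pmel (3453 of its UMIs, against 22 for Tyr), and the endothelial sum of 1690 to 2050 CPM was nearly all Pecam1, beside 18 UMIs of Kdr in all 16 libraries. Their part in the results below was not tested.

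The first question was how the pathway genes differ between HFSCs and their progeny. In untreated cells 4 of the 6 tested members (Gas1, Gli2, Gli3 and Sufu) were higher in HFSCs and 0 lower, where 32.1% of all tested genes were called and 16.1% were called higher. With N1-AcSpd 4 of 6 (Gas1, Gli2, Gli3 and Smo) were higher and 0 lower, where 33.3% of all tested genes were called and 16.5% were called higher. The median log2 fold change of the 6 members was 0.63 without and 0.61 with N1-AcSpd, against 0.02 and -0.01 over all tested genes. The libraries of the groups did not overlap for 4 of 6 members without N1-AcSpd (32.2% of all genes) and for 5 of 6 with it (34.4%).

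**Figure D2:**
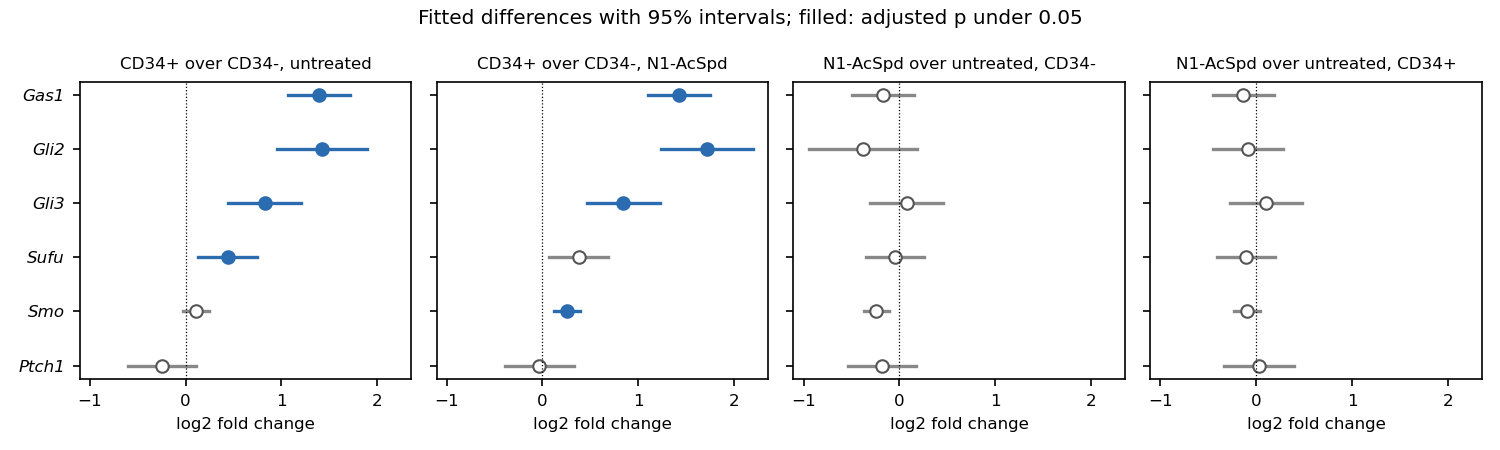
Fitted log2 fold change (horizontal axis) of the 6 tested members with 95% intervals, for HFSCs (CD34+) over progenitors (CD34-) without and with N1-AcSpd and for N1-AcSpd over untreated in each cell type. Filled points have an adjusted p under 0.05. Differences above 1 are seen for Gas1 and Gli2 between the cell types, and all points in the treatment panels are open.

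Gas1 encodes a membrane-anchored protein that binds Hedgehog ligands and helps present them to Ptch1 (ENSMUSG00000052957, chr13:60174405-60177365 in GRCm38, minus strand, a gene without introns). Its level in untreated progenitors of mice 1 to 4 was 11.2, 9.96, 8.87 and 7.62 CPM, and in untreated HFSCs 25.1, 25.6, 23.5 and 24.7 CPM. With N1-AcSpd it was 9.61, 8.34, 5.78 and 9.76 CPM in progenitors and 24.4, 23.0, 19.1 and 23.4 CPM in HFSCs. Every HFSC library was above every progenitor library, and the group means stood in the order untreated HFSCs (24.7±0.9 CPM, SD, n = 4), N1-AcSpd HFSCs, untreated progenitors and N1-AcSpd progenitors, where the treated and untreated libraries of each cell type overlapped. The difference between the cell types was 1.39 without N1-AcSpd (SE 0.15, 2.63-fold, adjusted p = 1.10e-05, edgeR) and 1.42 with it (SE 0.15, 2.68-fold, adjusted p = 7.87e-06), and it was seen in 4 of 4 mice each time. Among all tested genes 2.97% had a larger log2 fold change without and 2.53% with N1-AcSpd. An antisense long noncoding RNA, Gm48488, overlaps 684 bases of Gas1 and was counted with 285 UMIs, 5.44% of the number counted for Gas1.

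Gli2, the main activating Gli factor, had the largest fitted difference of the 6 members in both cell type comparisons (ENSMUSG00000048402, chr1:118834132-119053619, minus strand). Untreated progenitors of mice 1 to 4 had 0.860, 0.702, 0.736 and 0.631 CPM and untreated HFSCs 1.82, 1.97, 2.00 and 2.11 CPM. With N1-AcSpd the values were 0.578, 0.603, 0.532 and 0.533 CPM in progenitors and 1.71, 1.71, 2.02 and 2.00 CPM in HFSCs. No progenitor library reached the lowest HFSC library. The cell type difference was 1.42 without N1-AcSpd (SE 0.22, 2.68-fold, adjusted p = 1.86e-06, edgeR) and 1.71 with it (SE 0.22, 3.28-fold, adjusted p = 5.28e-07). Of all tested genes, 2.80% and 1.83% had a larger log2 fold change. The interval of the difference between these 2 values included 0 (interaction 0.29, 95% interval -0.38 to 0.97, adjusted p = 1.0).

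Gli3, the main repressing Gli factor, was higher in HFSCs by a smaller amount (ENSMUSG00000021318, chr13:15463235-15730026, plus strand). Its level was 2.62, 1.66, 1.99 and 3.07 CPM in untreated progenitors and 3.98, 4.28, 3.63 and 4.72 CPM in untreated HFSCs, and with N1-AcSpd 2.35, 2.20, 2.39 and 2.95 CPM in progenitors and 3.56, 4.66, 4.29 and 5.28 CPM in HFSCs. Here too the cell types did not overlap, and within a cell type the treated and untreated libraries did. The difference was 0.82 (SE 0.18, 1.77-fold, adjusted p = 0.00281, edgeR) without and 0.84 (SE 0.18, 1.80-fold, adjusted p = 0.00198) with N1-AcSpd, higher in 4 of 4 mice each time. The activator and the repressor of the family both had more UMIs in HFSCs.

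Gli1, the third Gli factor, is induced by the pathway and reads out its activity (ENSMUSG00000025407, chr10:127329882-127341974, minus strand). It had 2, 3, 4 and 0 UMIs in untreated progenitors, 5, 6, 3 and 5 in N1-AcSpd progenitors, 5, 3, 7 and 2 in untreated HFSCs and 5, 5, 6 and 3 in N1-AcSpd HFSCs. Summed over the 4 libraries of a group, this was 0.107 CPM (95% Poisson interval 0.0489 to 0.203), 0.184 (0.111 to 0.288), 0.231 (0.134 to 0.369) and 0.244 CPM (0.147 to 0.381), intervals that cover counting error only. All 4 groups overlapped. Exact two-sided permutation tests on the CPM values gave p = 0.2 for the cell type difference without and p = 0.286 with N1-AcSpd, and p = 0.171 for N1-AcSpd in progenitors and p = 0.743 in HFSCs (0.381, 0.381, 0.381 and 0.743 after adjustment over the 4 tests, where 0.0286 was the smallest p possible). Gli1 counts are uncertain beyond their low depth: Arhgap9 overlaps its last 62 bases from the other strand with 181 UMIs, and the antisense RNA Gm47200 overlaps 9584 bases with 215 UMIs, both more than the 64 UMIs of Gli1.

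Ptch1 is at once the receptor and a classical target of the pathway (ENSMUSG00000021466, chr13:63508328-63573598, minus strand). Its level was 2.28, 1.85, 2.51 and 2.48 CPM in untreated progenitors, 1.73, 1.81, 2.70 and 1.80 CPM in N1-AcSpd progenitors, 1.99, 2.19, 1.68 and 1.85 CPM in untreated HFSCs and 1.63, 1.93, 2.39 and 1.94 CPM in N1-AcSpd HFSCs. All 4 groups overlapped, with means of 2.28±0.30, 2.01±0.46, 1.93±0.22 and 1.97±0.31 CPM (SD, n = 4). The cell type difference was -0.24 without N1-AcSpd (95% interval -0.60 to 0.11, adjusted p = 0.304, edgeR) and -0.03 with it (95% interval -0.39 to 0.32, adjusted p = 0.932). The upper bounds of these intervals, 0.11 and 0.32, lie below the lower bounds for Gas1 (1.07 and 1.10) and Gli2 (0.95 and 1.23). The sign of the second value changed to 0.09 with library totals in place of TMM scaling, and ranged from -0.14 to 0.14 when single libraries or mice were left out.

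Hhip, which binds and sequesters Hedgehog ligands and is a further target of the pathway (ENSMUSG00000064325, chr8:79965851-80058006, minus strand), had 1 UMI, in the N1-AcSpd progenitors of mouse 3. In the other groups 0 UMIs allow a level of up to 0.0356 CPM in untreated progenitors, 0.0407 CPM in untreated HFSCs and 0.0385 CPM in N1-AcSpd HFSCs (3 counts over the summed total of the group). A difference was not detectable at this depth.

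Sufu, which binds Gli proteins and restrains them (ENSMUSG00000025231, chr19:46396896-46488804, plus strand), was close to the threshold in both cell type comparisons. It had 2.49, 2.68, 2.77 and 2.35 CPM in untreated progenitors and 3.47, 3.23, 2.82 and 4.42 CPM in untreated HFSCs, with 2.97, 2.31, 1.94 and 2.75 CPM and 3.15, 3.24, 3.31 and 3.23 CPM in the same order with N1-AcSpd. HFSC libraries were above progenitor libraries under both conditions, by a narrow margin. The difference was 0.44 without N1-AcSpd (SE 0.14, 1.35-fold, adjusted p = 0.0301, edgeR) and 0.38 with it (SE 0.14, 1.30-fold, 95% interval 0.07 to 0.68, adjusted p = 0.0559). The call in untreated cells was lost without the progenitor library of mouse 1 (0.42, adjusted p = 0.0671) or 4 (0.40, adjusted p = 0.078), without the HFSC library of mouse 1 (0.44, adjusted p = 0.0546) or 4 (0.30, adjusted p = 0.125) and in fits that dropped mouse 1, 2 or 4 altogether (0.43, 0.49 and 0.26). The value with N1-AcSpd was called without the N1-AcSpd progenitor library of mouse 1 (0.47, adjusted p = 0.0259) and without the untreated HFSC library of mouse 3 (0.40, adjusted p = 0.0337) or 4 (0.40, adjusted p = 0.0226).

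Smo is the membrane protein that passes the signal from Ptch1 to the Gli factors (ENSMUSG00000001761, chr6:29735503-29761365, plus strand). Its deposited level was 14.5, 12.4, 13.0 and 13.0 CPM in untreated progenitors, 11.1, 11.2, 12.01 and 10.5 CPM in N1-AcSpd progenitors, 14.7, 14.0, 13.7 and 14.9 CPM in untreated HFSCs and 13.0, 12.7, 13.4 and 14.3 CPM in N1-AcSpd HFSCs. The N1-AcSpd progenitors were the lowest group, with every library below every other library of the series, and the other 3 groups overlapped. HFSCs were higher by 0.26 with N1-AcSpd (SE 0.06, 1.19-fold, adjusted p = 0.00291, edgeR) and the difference without it was 0.11 (95% interval -0.02 to 0.24, adjusted p = 0.199). The interaction was 0.15 (95% interval -0.04 to 0.33, adjusted p = 1.0).

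Part of the Smo count may belong to a processed pseudogene, Gm13717, which lies on the same strand within the gene body of Smo (chr6:29750761-29751125). The table gave 1414 UMIs to Gm13717 and 4371 to Smo, so that the pseudogene would make up 32.4% of the Smo count if its tags were counted for both. Hosts of other nested genes also had the higher counts. Of 1197 same-strand pairs with a mean of at least 20 UMIs for the nested gene, the host had at least as many UMIs as the nested gene in every library in 1192 (99.6%), and of 1233 opposite-strand pairs in 1228 (99.6%). A host with more tags of its own meets this condition too, and genes that do not overlap were not compared. The check therefore cannot show that tags were counted for both. Gm13717 itself was called in none of the comparisons (-0.12, -0.02, -0.03 and 0.07, adjusted p of 0.437 to 0.976). With its UMIs subtracted, a step chosen after seeing the data, Smo had 9.76, 8.24, 9.18 and 8.57 CPM in untreated progenitors, 6.52, 7.73, 7.22 and 6.44 CPM in N1-AcSpd progenitors, 10.5, 10.3, 9.86 and 10.8 CPM in untreated HFSCs and 8.72, 9.10, 9.14 and 9.86 CPM in N1-AcSpd HFSCs. The 2 cell types then did not overlap under either condition, and HFSCs were higher by 0.21 without (SE 0.07, adjusted p = 0.0283, edgeR) and by 0.40 with N1-AcSpd (SE 0.08, adjusted p = 0.000445).

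**Figure D3:**
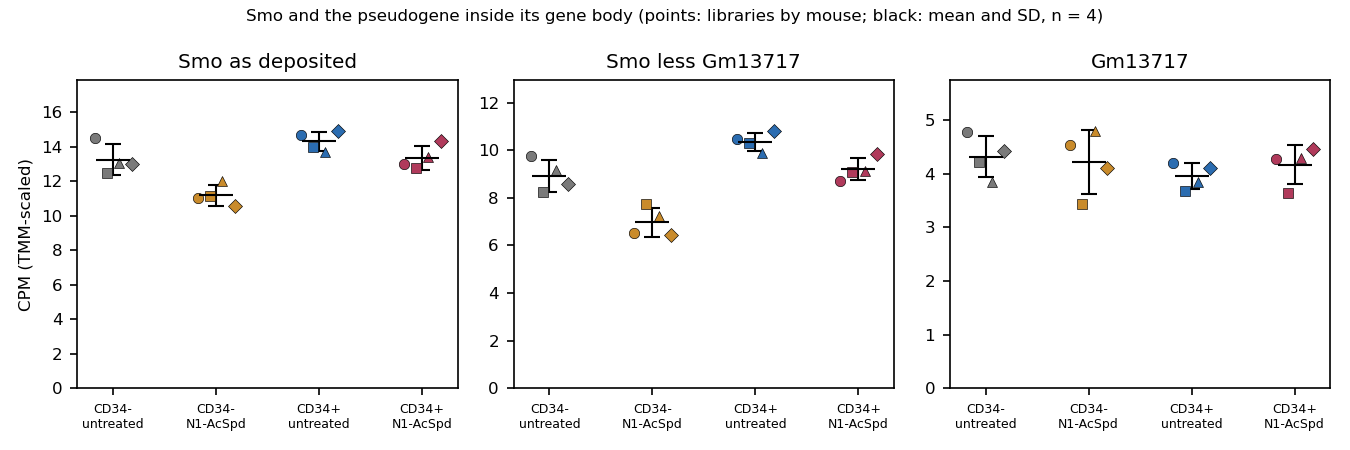
CPM (vertical axes, from 0) of Smo as deposited, of Smo less the UMIs of the pseudogene Gm13717, and of Gm13717 in the 4 groups. Points are libraries by mouse and black bars the mean and SD of 4 libraries. The N1-AcSpd progenitors are the lowest group in the first and second panels (mean 6.98 CPM in the second), while the means of Gm13717 lie between 3.96 and 4.31 CPM.

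The second question was whether N1-AcSpd changed the pathway genes within a cell type. In progenitors 0 of 6 members were called, where 0.614% of all tested genes were, and in HFSCs 0 of 6, where 0.325% were. These 2 comparisons share no library with each other, but each shares its untreated and its treated libraries with the cell type comparisons above. The members' median log2 fold change was -0.18 in progenitors and -0.09 in HFSCs, against 0.00 and -0.01 over all genes. For 2 of 6 members, Smo and Gli2, the treated and untreated progenitor libraries did not overlap, which was so for 9.05% of all tested genes. In HFSCs all 6 members overlapped, and 6.81% of all genes did not.

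Smo was lower in N1-AcSpd progenitors in 4 of 4 mice, with a log2 fold change of -0.24 (SE 0.06, 95% interval -0.37 to -0.11) and an adjusted p of 0.0760 (edgeR). It was past the threshold after subtraction of Gm13717 (-0.36, SE 0.07, adjusted p = 0.0403) and with DESeq2 on the deposited counts (-0.25, adjusted p = 0.0360). It stayed short of the threshold with the mouse as a block and in all 20 fits that left out a library or a mouse (-0.28 to -0.19). In HFSCs Smo differed by -0.10 (95% interval -0.23 to 0.04, adjusted p = 0.495), also with a negative sign in 4 of 4 mice. After subtraction of Gm13717 the value there was -0.17 (95% interval -0.33 to -0.01, adjusted p = 0.31). Of the 7 genes in the HFSC marker list, 0 were called higher in N1-AcSpd progenitors, beside 0.614% of all genes called in either direction. Only Nfatc1 was called lower (-0.35, SE 0.09, adjusted p = 0.048, edgeR). The uncalled ones had both signs (Lhx2 0.68, Cd34 0.03, Itga6 -0.21, Sox9 -0.255, Krt15 -0.35 and Lgr5 -0.88). The part of marker composition in the Smo value was not tested.

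Gli2 in progenitors differed by -0.38 with N1-AcSpd (SE 0.26, 95% interval -0.95 to 0.19, adjusted p = 0.540), with a negative sign in 4 of 4 mice, at 11 to 20 UMIs in a library. In HFSCs it differed by -0.09 (95% interval -0.45 to 0.28, adjusted p = 0.890). Gas1 differed by -0.17 in progenitors (95% interval -0.49 to 0.15) and by -0.14 in HFSCs (95% interval -0.46 to 0.18). Gli3 differed by 0.08 (-0.31 to 0.46) and 0.10 (-0.28 to 0.47), Sufu by -0.05 (-0.35 to 0.26) and -0.11 (-0.41 to 0.20), and Ptch1 by -0.18 (-0.54 to 0.17) and 0.03 (-0.33 to 0.39). The interval of Gli2 in progenitors was the widest of these.

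The interaction, the difference in the cell type effect between N1-AcSpd and untreated cells, was called for 0 of 6 members and for 0 genes in all (0% of genes tested; 799 had an unadjusted p under 0.05, and DESeq2 called 72 genes, 0 of them members). The members' estimates ran from -0.06 (Sufu) to 0.29 (Gli2).

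Across the 16 libraries Gas1 and Gli2 followed each other (Pearson r of log2 CPM 0.96), and Gli2 and Gli3 did so at 0.85. These libraries share mice and the cell type difference, and after the group means were removed the values were 0.26 and 0.06. The genes with the most similar pattern, among 9657 with a mean of at least 50 UMIs, were Itm2c (r = 0.983), Lgals9 (0.982) and Fkbp5 (0.979) for Gas1 and Barx2 (0.986), Arl4c (0.986) and Krt15 (0.985), a keratin of the bulge, for Gli2. For Gli3 they were Bckdk (0.959), Taf6 (0.956) and Bcap31 (0.948). For Smo they were Eid1 (0.921), Shc4 (0.917) and Sp3os (0.912), and for Sufu Cep85 (0.886), Parp8 (0.880) and Mcoln1 (0.878).

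Of 43 other genes of the pathway in a list ordered by role, 36 were tested. In untreated cells 8 were higher in HFSCs and 6 lower (38.9%, beside 32.1% of all genes, median log2 fold change 0.17), and with N1-AcSpd 13 were higher and 5 lower (18 of 36, beside 33.3% of all genes, median 0.12). For N1-AcSpd 0 of 36 were called in progenitors, beside 0.614% of all genes, and 1, Spop, in HFSCs, beside 0.325%.

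**Figure D4:**
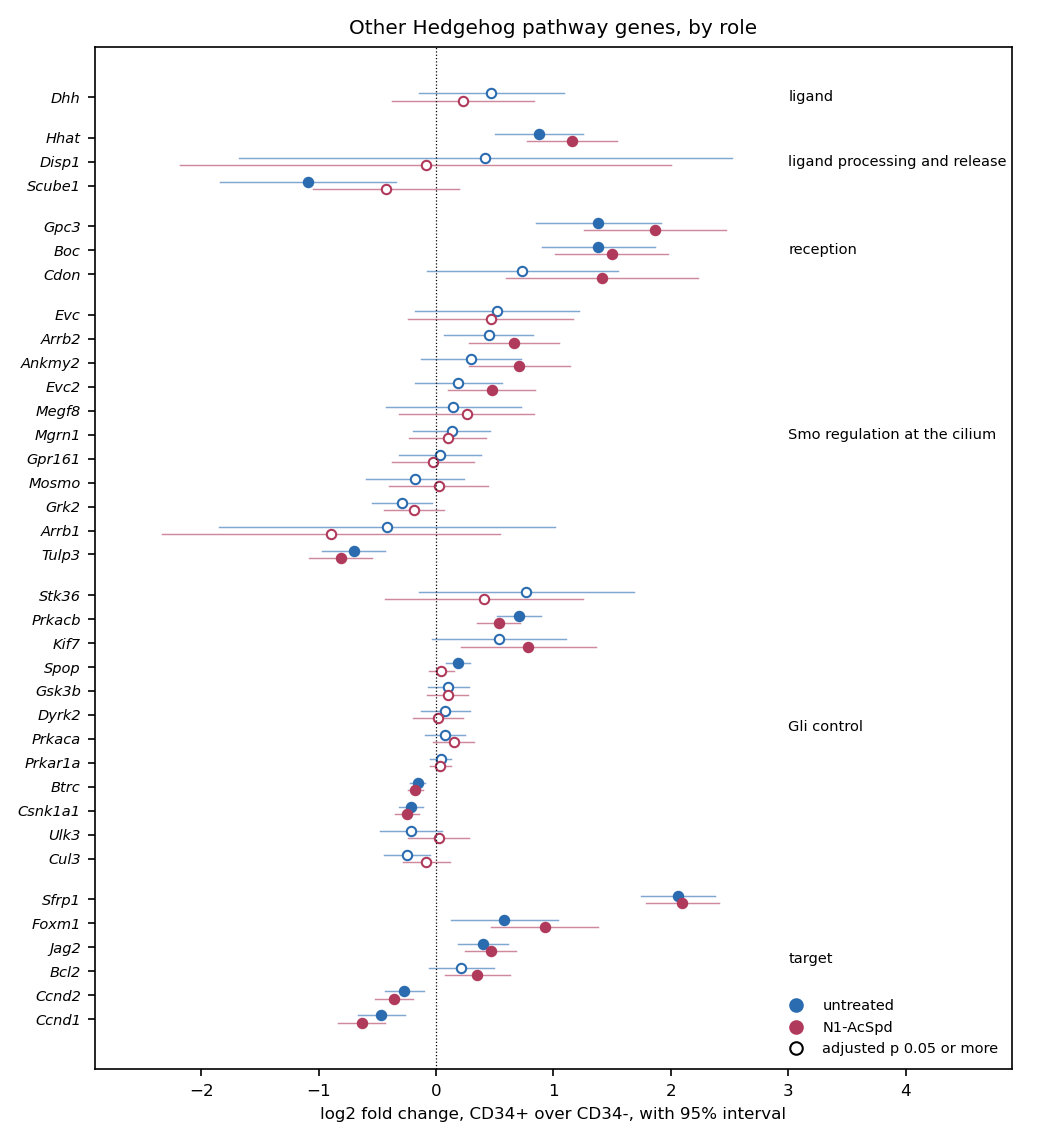
Log2 fold change of HFSCs over progenitors (horizontal axis) with 95% intervals for the 36 other pathway genes tested, grouped by role, without (blue) and with (red) N1-AcSpd. Filled points have an adjusted p under 0.05. The target Sfrp1 and the reception genes Gpc3 and Boc have the largest values with N1-AcSpd (2.10, 1.86 and 1.5), and Tulp3, Ccnd1 and Ccnd2 lie to the left of 0 under both conditions.

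The ligands were at low counts. Shh had 6, 3, 10 and 8 UMIs in untreated progenitors, N1-AcSpd progenitors, untreated HFSCs and N1-AcSpd HFSCs, and the antisense gene 9530036O11Rik, counted with 23900 UMIs, overlaps 8983 of its bases. Ihh had 3 UMIs in all 16 libraries. Dhh had 337 UMIs, but 777 were counted for Rhebl1, which overlaps 3389 bases on the same strand. The mean level of Dhh was 0.700±0.252 CPM in untreated and 1.06±0.33 CPM in N1-AcSpd progenitors, and 0.979±0.152 and 1.24±0.30 CPM in HFSCs (SD, n = 4), with no call between cell types (0.47 and 0.23) or for N1-AcSpd (0.58 and 0.34). Hhat, which attaches a fatty acid to the ligand, was higher in HFSCs by 0.88 (SE 0.17) and 1.15 without and with N1-AcSpd, though Kcnh1 overlaps it from the other strand with 265 UMIs beside its 569.

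Of 3 tested reception genes, 2 were higher in HFSCs without and 3 with N1-AcSpd, beside 16.1% and 16.5% of all genes, counts that rest on few genes. Boc, a co-receptor like Gas1, had 1.56±0.24 and 4.05±0.57 CPM in untreated progenitors and HFSCs (SD, n = 4) and was higher in HFSCs by 1.38 (adjusted p = 3.51e-04, edgeR) without and 1.5 (adjusted p = 1.53e-04) with N1-AcSpd. Gpc3, a cell surface glypican that binds Hedgehog ligands and limits their access to Ptch1, had 0.585±0.092 and 1.53±0.21 CPM and was higher by 1.38 (adjusted p = 1.01e-04) and 1.86 (adjusted p = 7.47e-06).

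Among the 11 genes listed for pathway regulation at the cilium, 0 were higher and 1 lower without N1-AcSpd. With N1-AcSpd 3 were higher and 1 lower. The shares called were 9.09% without and 36.4% with it, beside 32.1% and 33.3% of all genes. The lower gene was Tulp3, which carries membrane proteins into the cilium, at 74.1±10.3 CPM in untreated progenitors and 45.6±7.1 CPM in untreated HFSCs (-0.70 without and -0.81 with N1-AcSpd). Among the 12 genes that control the Gli proteins, 2 were higher and 2 lower under each condition (33.3% called, a share close to that of all genes). Prkacb, a catalytic subunit of protein kinase A, which phosphorylates Gli2 and Gli3, was higher by 0.71 and 0.53. Csnk1a1, a casein kinase that adds to this phosphorylation, was lower (-0.22 and -0.24). Btrc was lower as deposited (-0.16 and -0.18), but 99.6% of its count could come from the pseudogene Gm6807 in its gene body, and after subtraction its values were 0.51 (adjusted p = 0.405) and 0.10 (adjusted p = 0.909).

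Spop, an adaptor of the ubiquitin ligase that targets Gli2 and Gli3, had 28.1 to 28.5 CPM in untreated HFSCs and 22.4 to 24.9 CPM in N1-AcSpd HFSCs, ranges that did not overlap. It fell by 0.27 on the log2 scale with N1-AcSpd (SE 0.05, adjusted p = 0.0392, edgeR). This call was lost without any 1 of the 4 untreated HFSC libraries (adjusted p of 0.062 to 0.121), without the N1-AcSpd HFSC library of mouse 1, 3 or 4 (0.0796 to 0.119), without the untreated progenitor library of mouse 1 or 2 (0.0572 and 0.0561) and without any 1 mouse (0.103 to 0.292), while the value stayed between -0.29 and -0.24. Spop was also higher in untreated HFSCs than in untreated progenitors (0.19), a call lost without mouse 1 (0.19, adjusted p = 0.0533) or mouse 3 (0.16, adjusted p = 0.0569).

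Among 6 tested targets other than the members, 3 were higher and 2 lower in HFSCs without N1-AcSpd, and 4 higher and 2 lower with it (5 and 6 of 6 called, beside 32.1% and 33.3% of all genes). The weakest call under each condition lay at the threshold (adjusted p = 0.04975 without and 0.04916 with N1-AcSpd, edgeR). For the weakest call without N1-AcSpd the libraries of the cell types overlapped, and that gene shares bases with another on the same strand (1185 UMIs beside its 1369). Sfrp1, a secreted Wnt antagonist that is also a marker of bulge cells, had the largest difference of the list, with 2.35±0.45 and 9.83±1.91 CPM in untreated progenitors and HFSCs and 2.46±0.17 and 10.6±0.79 CPM with N1-AcSpd (log2 fold change 2.06 and 2.10). Jag2, a Notch ligand, was higher by 0.40 and 0.46. The cyclins Ccnd1 (-0.47 and -0.63) and Ccnd2 (-0.27 and -0.36) were lower, with LTO1 overlapping Ccnd1 (14468 UMIs beside 18904) and the antisense RNA Gm43126 overlapping Ccnd2 (27776 beside 75923). The calls without N1-AcSpd were lost for Ccnd2 without the untreated progenitor library of mouse 2 (-0.22, adjusted p = 0.051) or all of mouse 1 or 2 (-0.24 and -0.23) and for Jag2 without mouse 4 (0.36, adjusted p = 0.0774).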

How the data were processed

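The authors deposited 1 table of unique UMI counts per gene from 3′ RNA-seq of sorted cells. Per their methods, reads were demultiplexed, mapped to mm10 with kallisto (0.45.0 in the submitters' processing notes), assigned to genes with bedtools and counted as unique UMIs. No strand setting is given in the sources used here, and hosts had at least the count of genes nested in them on either strand in 99.6% of pairs. A group and a replicate number were taken from the labels of each library. Replicates were read as mice because the paper's methods describe them as independent donors. The deposited counts were fitted with edgeR 4.0.16 (R 4.3.3; TMM, 1 mean for each of 4 groups over 16 libraries, quasi-likelihood test, Benjamini-Hochberg over 19049 genes with a mean of at least 5 UMIs). The SE is the larger of the log2 fold change over the root of F and the counting error of the groups' summed counts, and 95% intervals use it. Empty cells (156050) were read as 0. Positions are from GENCODE M21 (GRCm38), in which 62 identifiers (0.116% of UMIs) had no entry, and promoters from RefSeq. The 8 members, the lists of pathway genes and markers and the rules were chosen with earlier results of these data known. All members were named, with at most 12 other pathway genes called in some comparison, by smallest p, and Shh, Ihh and Dhh; 1 further gene that the rule names is not reported here. Likeness was the Pearson r of log2 CPM over 16 libraries among named genes with a mean of at least 50 UMIs that do not overlap the member.

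Libraries of the same replicate number share a code in their column headers and were read as coming from the same mouse, which pairs them. Deviations from the group means correlated at 0.0133 on average within a mouse (-0.0689 to 0.0858, 24 pairs) and at -0.00443 between mice (72 pairs). The untreated and treated cells of 4 independent mice were separate samples. No pair of libraries within a group agreed within sampling noise (lowest chi-square per degree of freedom 25.4), and pairs across groups were not checked. The alternatives were DESeq2 size factors, library totals, filterByExpr, no filter, the mouse as block, the 2 groups alone, DESeq2 1.42.0, a log2 fold change over 0.5 and leaving out each library and mouse; subtracting nested genes was added after seeing the data. With 4 libraries per group, members at 25 to 70 UMIs per library are measured with a coarse counting error.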

Additional observations from a re-analysis of the deposited data

Results flagged for a closer look

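Of 75 groups of 4 libraries checked for the genes named here, 4 held a library apart from the other 3, beside the 1 in 20 that chance gives. All 4 were N1-AcSpd progenitors. Ptch1 was highest in mouse 3 (2.70 CPM, against 1.73 to 1.81 in the others), and Gli1 was lowest there (0.114 CPM, or 3 UMIs, against 5 to 6). Among the other pathway genes, Tulp3 was highest in mouse 4 (95.6 CPM) and Btrc lowest in mouse 1 (388.0 CPM).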

How the results depend on the processing

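Gas1, Gli2 and Gli3 stayed higher in HFSCs, past the threshold, under all alternatives run in both cell type comparisons, including all 20 fits that left out a library or a mouse (Gas1 1.28 to 1.51, Gli2 1.33 to 1.79, Gli3 0.68 to 0.98). With the mouse as replicate block no member changed its call, while the genes called for N1-AcSpd went from 117 to 349 in progenitors and from 62 to 152 in HFSCs. Members at low counts limit what differences could be seen, and the causes of the changes below were not tested.

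A threshold of 0.5 on the log2 fold change left 2913 and 3197 genes between the cell types (of 6123 and 6346) and 27 and 19 for N1-AcSpd in progenitors and HFSCs. For N1-AcSpd, 35 and 35 genes were called with no filter, 0 and 3 with the 2 groups alone and 558 and 423 with DESeq2, which also called 72 for the interaction. Members called for N1-AcSpd in progenitors went from 0 to 1 (Smo) with nested genes subtracted and to 1 with DESeq2. Leaving out libraries or mice gave 4506 to 6210 and 4927 to 6369 genes between the cell types, 4 to 157 and 3 to 73 for N1-AcSpd and 0 to 11 for the interaction, with 3 to 4, 4 to 5, 0, 0 and 0 members. The lowest counts for N1-AcSpd were without mouse 4.

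Library totals in place of TMM shifted the median of all genes from 0.02 to 0.14 (untreated) and from -0.01 to 0.11 (N1-AcSpd), so that 4861 genes were called higher and 1762 lower in untreated HFSCs (3059 and 3064 with TMM) and 4792 and 1904 with N1-AcSpd (3147 and 3199). Under them Smo was called in untreated cells (0.23, adjusted p = 0.00978, edgeR) and Sufu with N1-AcSpd (0.49, adjusted p = 0.0172), and Ptch1 with N1-AcSpd changed sign to 0.0868. Relative to the median of all genes, the differences were 0.09 and 0.09 for Smo, 0.38 and 0.39 for Sufu and -0.02 and -0.02 for Ptch1 with TMM and library totals. Sufu in untreated cells lost its call with no filter (0.43, adjusted p = 0.0572), the 2 groups alone (0.44, adjusted p = 0.0584) and DESeq2 (0.42, adjusted p = 0.0633). With library totals Btrc (-0.04 and -0.06) and, in untreated cells, Csnk1a1 (-0.10) and Ccnd2 (-0.16) were not called, and Spop lost its N1-AcSpd call in HFSCs (-0.26, adjusted p = 0.0537), as with no filter (0.0849) and the 2 groups alone (0.142). Btrc turned to 0.506 and 0.0955 with nested genes subtracted. Leaving out libraries also turned the sign of uncalled values. For Ptch1 the range was -0.135 to 0.143 between cell types with N1-AcSpd and -0.131 to 0.132 for N1-AcSpd in HFSCs. For Sufu it was -0.157 to 0.1 and -0.206 to 0.0435 for N1-AcSpd in progenitors and HFSCs and -0.306 to 0.168 for the interaction. For Gli3 it was -0.0494 to 0.234 for N1-AcSpd in progenitors and -0.137 to 0.147 for the interaction, and for Gas1 -0.111 to 0.181 for the interaction.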
